A study of Mus musculus with 6 samples.

Results

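The 8 genes described here encode amino acid transporters of the brain barrier: Slc7a5, Slc3a2, Slc7a11, Slc7a1, Slc38a5, Slc38a3, Slc1a4 and Slc6a6. They were chosen by name, with earlier results of these data known. Every probe set annotated to exactly 1 gene, that gene being 1 of the 8, was taken. This gave 17 of the 34945 singly named probe sets on the array, and 8 of its 18193 genes. RNA came from E18.5 embryonic mouse brains taken whole, on a genetic background given as C57/bl6, with 3 wild-type (Wt) and 3 Foxf2 mutant samples and 1 Affymetrix array per sample. Foxf2 is a forkhead transcription factor gene known from brain pericytes. The labels name each sample as RNA of an embryo and do not describe the mutation, its zygosity or the litters, so a p-value here speaks only of the spread among these 6 samples.

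Brain capillary endothelium is sealed by tight junctions, so amino acids cross it through carriers. Slc7a5 (LAT1) carries leucine, phenylalanine and other large neutral amino acids and works as a heterodimer with the glycoprotein Slc3a2, which brings it to the cell surface. Slc3a2 is also the partner of Slc7a11 (xCT), which takes up cystine in exchange for glutamate. Slc7a1 carries arginine and lysine, Slc38a5 and Slc38a3 carry glutamine, Slc1a4 carries serine and other small neutral amino acids, and Slc6a6 carries taurine. Most of them are not limited to endothelium. Slc7a11 is known from meninges and astrocytes, and Slc38a3 and Slc1a4 from astrocytes and neurons, so whole-brain RNA sums several cell types.

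Several genes of amino acid transport are known targets of ATF4, the transcription factor of the amino acid response, which binds sites with the core TGATGNAA. RefSeq promoters (build GRCm38.p6, 250 bases before to 50 after the start) were listed for 5 of the 8 genes, with 6 promoters in all, and TGATGNAA was searched on both strands. Slc7a11 held 2 matches and Slc1a4 held 1, while no match was found in the windows of Slc7a1, Slc38a5 and Slc3a2. Of all 32851 promoters of this length, 3.97% held a match and 0.07% held 2 or more. The stretches with a match are shown because genes of the same response were measured beside the transporters. Capitals mark the matches. The first stretch ends at the base before the Slc7a11 start and lies at chr3:50443614-50443733 on the minus strand, and the second spans the Slc1a4 start at chr11:20332706-20332735 on the minus strand.
Slc7a11: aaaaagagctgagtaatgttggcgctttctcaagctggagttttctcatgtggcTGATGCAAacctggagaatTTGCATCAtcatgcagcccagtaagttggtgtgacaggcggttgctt
Slc1a4: tccagcgtgcctcctgcgTTGCATCAtctc
In Slc7a11 the matches begin 66 bases before the start on the gene's strand and 47 bases before it on the other strand. The Slc1a4 match is on the other strand and begins 4 bases before the start. A match describes the letters only and is no measurement of binding.

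None of the 8 transporters passed the test between mutant and wild-type brains. Of the 17 probe sets, 15 were bright enough to be tested and 2 were too dim, 1 each of Slc7a1 and Slc38a3. The test was limma on log2(intensity + 16), and a probe set was called at a Benjamini-Hochberg adjusted p under 0.05 over all 27022 tested probe sets. The count was 0 of 15, against 0.389% of all tested probe sets, so a count of 0 in a group of this size is near the background. The adjusted p-values ran from 0.365 to 0.997. At an unadjusted p under 0.05 there was 1 of the 15, a probe set of Slc6a6, against 13.6% of all tested. Of the 15, 8 read higher and 7 lower in the mutant, with a median log2 difference of 0.016 against -0.0064 over all tested probe sets. Their median absolute log2 difference was 0.073, and that of all tested was 0.11. In bulk RNA, fewer cells of a type and less RNA per cell cannot be told apart.

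The 95% intervals show which changes the arrays leave room for. For 13 of the 15 tested probe sets the interval of the log2 difference lay wholly between -0.5 and 0.5. The exceptions were the brighter probe sets of Slc6a6 and Slc7a11, whose intervals reached 0.63 and 0.72. The half-width of the intervals ran from 0.17 for a Slc7a1 probe set to 0.43 for Slc7a11. These intervals are not adjusted for the number of probe sets tested, so a difference as large as its half-width could still miss the threshold. The second brightest Slc6a6 probe set had an interval without 0 and a limma adjusted p of 0.365. An adjusted p above the threshold does not show that the groups were equal.

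**Figure D1:**
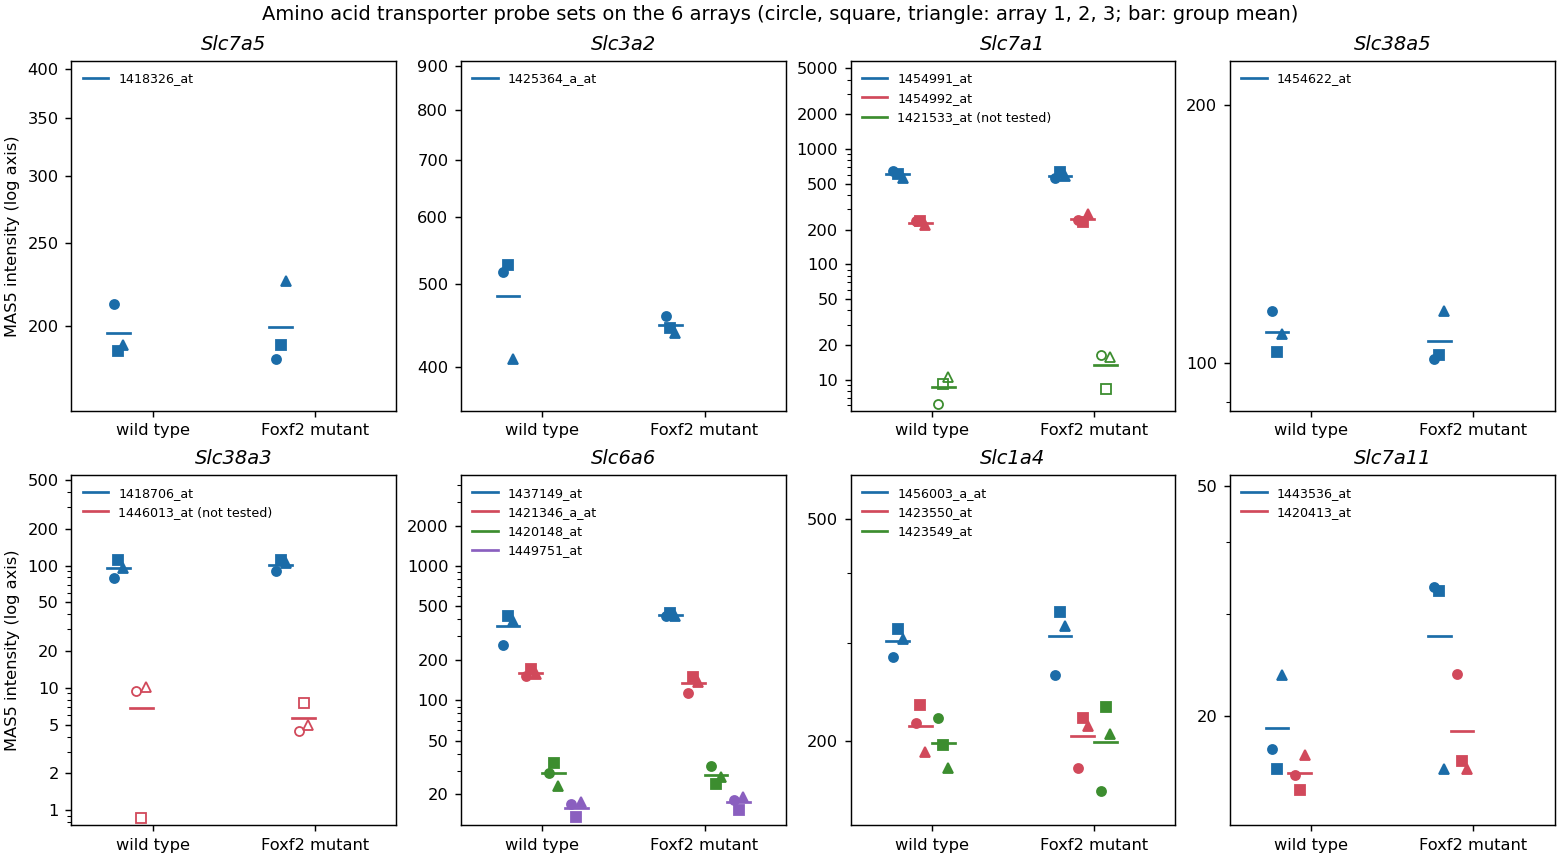
Intensity of each of the 17 probe sets on each of the 6 arrays, on a log axis, in 1 panel per gene. Filled symbols are tested probe sets, open symbols those too dim to be tested, and bars are group means. In all panels but that of Slc6a6 the arrays of both groups overlap on every probe set.

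The large neutral amino acid carrier Slc7a5 read nearly the same in both groups. Its single probe set gave 212, 187 and 190 in wild-type arrays 1 to 3 and 183, 190 and 226 in mutant arrays 1 to 3. The highest and the lowest of the 6 values were both in mutant arrays, so the mutant values spanned those of the wild type. The means were 196 ± 13.7 and 199 ± 23.2 (SD, n = 3 each), a log2 difference of 0.016 ± 0.096 (SE) with an interval of -0.20 to 0.23 and a limma adjusted p of 0.960. As a fold, the interval ran from 0.870 to 1.18.

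Slc3a2, the heavy chain that Slc7a5 and Slc7a11 share, also had a single probe set. It read 517, 527 and 409 in wild-type and 459, 445 and 439 in mutant arrays. The mutant arrays lay close together, while wild-type array 3 lay below them and the other wild-type arrays above. The means were 484 ± 65.1 and 448 ± 9.98 (SD, n = 3 each), a log2 difference of -0.10 with an interval of -0.32 to 0.11 (limma adjusted p = 0.688). Without wild-type array 3 the difference was -0.21 (adjusted p = 0.276). Leaving out wild-type array 2 gave -0.038. The Slc3a2 and Slc7a5 differences were each within the spread between arrays.

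Slc7a11, the cystine carrier, was dim on both of its probe sets. On the brighter one the wild-type arrays read 17.5, 16.2 and 23.5, and the mutant arrays 33.4, 32.9 and 16.2. Mutant arrays 1 and 2 were above every wild-type array, and mutant array 3 was at the level of the lowest of them. The log2 difference was 0.29 ± 0.19 (SE), the largest among the 15, with an interval of -0.14 to 0.72 (limma adjusted p = 0.543). Without mutant array 3 it was 0.49 (adjusted p = 0.351), and without mutant array 1 it was 0.18. Leaving out wild-type array 3 as well as mutant array 3 gave 0.58 (adjusted p = 0.348).
On the second probe set the wild-type arrays read 15.8, 14.9 and 17.1 and the mutant arrays 23.6, 16.7 and 16.2, and only mutant array 1 stood above the wild type. The log2 difference there was 0.12 ± 0.13 (SE), and 0.024 without mutant array 1. At these intensities the offset of 16 is as large as the signal and sets part of the size of the difference, which for the brighter probe set was 0.45 with an offset of 1 and 0.13 with an offset of 64. Markers of meninges and fibroblasts, a known site of Slc7a11, summed to 6061 to 6499 in wild-type and 5955 to 6770 in mutant arrays. Of these 14 markers 10 read higher and 4 lower, the brightest, Ptgds and Igf2, being among the lower. Markers of astrocytes and radial glia summed to 11389 to 12705 in wild-type and 12750 to 13776 in mutant arrays, and without Vim the groups overlapped. The part of these cell types in the Slc7a11 values was not tested.

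The arginine and lysine carrier Slc7a1 had 3 probe sets, which differed in sign. The brightest read 642, 614 and 560 in wild-type and 558, 630 and 582 in mutant arrays, a log2 difference of -0.036 ± 0.075 (SE). The next read 236, 238 and 218 in wild-type and 244, 231 and 273 in mutant arrays, a log2 difference of 0.10 ± 0.083 (SE). Both had overlapping groups, with limma adjusted p of 0.874 and 0.632. These are the narrowest intervals of the 8 genes, -0.21 to 0.13 and -0.086 to 0.29. The third was too dim to be tested, with 6.18, 9.16 and 10.6 against 16.4, 8.29 and 15.8, where the exact permutation test over samples, two-sided, gave p = 0.3.

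Of the glutamine carriers, Slc38a5 read 115, 103 and 108 in wild-type and 101, 102 and 115 in mutant arrays on its single probe set. The log2 difference was -0.034 ± 0.091 (SE), with an interval of -0.24 to 0.17 (limma adjusted p = 0.902). Slc38a5 lies on chromosome X, and mutant array 2 was the only array with a signal of the Y-linked gene Eif2s3y (260, against at most 2.12 elsewhere). The Slc38a5 value of that array, 102, lay between those of the other mutant arrays. The X-linked gene Xist read 13.0 in mutant array 2, 1002 in mutant array 1 and 1956 to 2400 in the other arrays. These sex-linked signals were thus not balanced between the groups. They were not a term of the fit, and their part in the group differences was not tested.
Slc38a3 read 79.5, 112 and 95.5 in wild-type and 89.8, 110 and 105 in mutant arrays on its brighter probe set. The mutant values lay within the range of the wild type, and the log2 difference was 0.084 ± 0.13 (SE; limma adjusted p = 0.818). Its other probe set was near the floor of the array, at 0.870 to 10.1 in wild-type and 4.41 to 7.56 in mutant arrays, and was not tested (exact permutation p = 0.8).

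Slc1a4, the carrier of serine and other small neutral amino acids, was read by 3 tested probe sets. The brightest gave 283, 317 and 305 in wild-type and 263, 340 and 321 in mutant arrays, a log2 difference of 0.022 ± 0.099 (SE). The others had differences of -0.060 ± 0.10 (SE) on the next brightest and -0.0013 ± 0.12 (SE) on the dimmest. On all 3 the mutant arrays kept the same order, with mutant array 1 the lowest of the 6 arrays (263, 179 and 163) and mutant array 2 the highest mutant array (340, 220 and 230). The spread of Slc1a4 between mutant arrays was thus shared by its probe sets and was larger than the difference between the groups. The limma adjusted p-values ran from 0.837 to 0.997.

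Slc6a6, the taurine carrier, was the transporter whose probe sets disagreed most. On its second brightest probe set the wild-type arrays read 152, 170 and 156 and the mutant arrays 114, 150 and 137, so that every mutant array lay below every wild-type array. The means were 160 ± 9.57 and 134 ± 18.0 (SD, n = 3 each), and the log2 difference was -0.24 with an interval of -0.48 to -0.0011. Its unadjusted limma p was 0.049 and its adjusted p 0.365. The unadjusted p was above 0.05 in several alternatives. Among them were offset 64, quantile normalization, no variance trend, leaving out wild-type array 1, and leaving out mutant array 1, where the log2 difference was -0.14. With median centring the unadjusted limma p was lower, at 0.021 (adjusted p = 0.226). Over all alternatives the log2 difference ran from -0.32 to -0.14. This was the single tested probe set of the 15 whose groups did not overlap, against 20.3% of all tested probe sets. The exact permutation test gave p = 0.1, the smallest possible with 3 arrays against 3.

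The brightest Slc6a6 probe set went the other way. It read 260, 427 and 393 in wild-type and 424, 449 and 423 in mutant arrays, with overlapping groups. Wild-type array 1 stood below the other arrays. The log2 difference was 0.28 ± 0.15 (SE; limma adjusted p = 0.467), and without wild-type array 1 it was 0.071. The dimmer probe sets of Slc6a6 had differences of -0.032 on the third brightest, which read 23.1 to 34.1 over the arrays, and 0.073 on the dimmest, which read 13.6 to 19.1.

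The contrast between the brighter Slc6a6 probe sets was examined after their values had been seen. Within each array, the log2 value of the brightest minus that of the second brightest was 0.72, 1.25 and 1.25 in wild-type and 1.76, 1.49 and 1.52 in mutant arrays. Each mutant array exceeded each wild-type array, with a mean shift of 0.52 on the log2 scale. Leaving out 1 array at a time gave shifts from 0.34, without wild-type array 1, to 0.61. The pair was chosen because its probe sets went opposite ways, so the shift is a description of these arrays and supports nothing further.

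**Figure D2:**
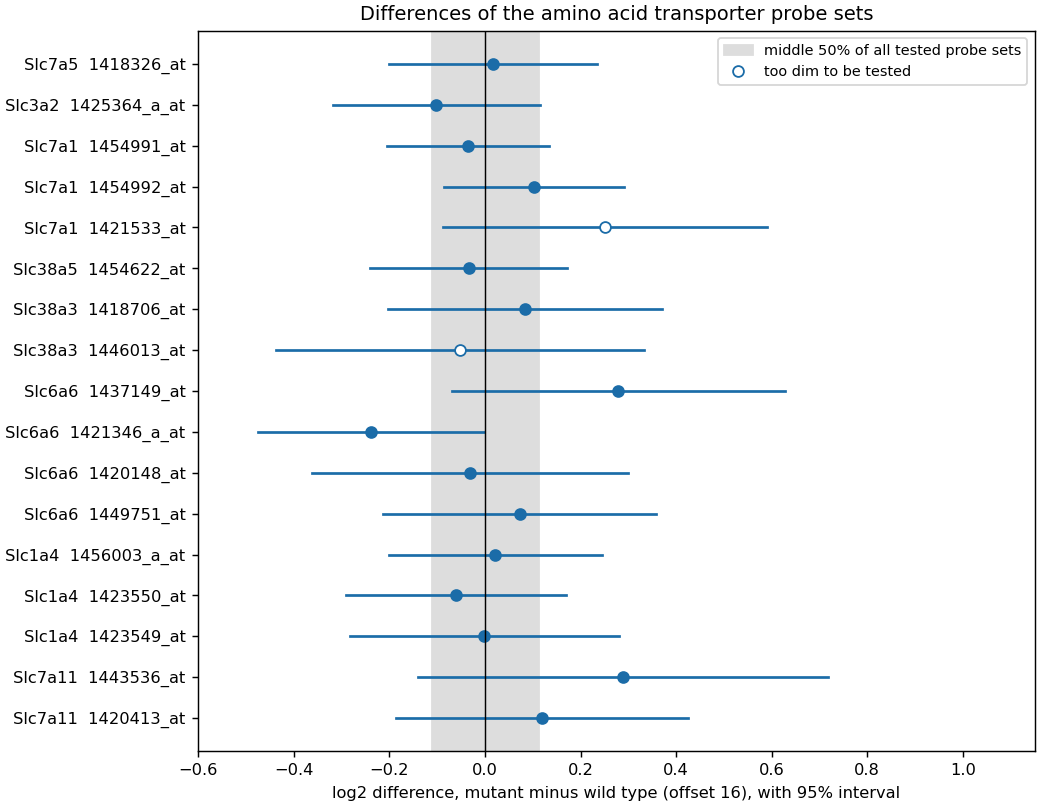
Log2 difference, mutant minus wild type, of the 17 probe sets with 95% intervals, where open points are probe sets too dim to be tested. The grey band spans the middle 50% of all tested probe sets, from -0.11 to 0.11, and every interval but that of the second brightest Slc6a6 probe set holds 0.

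The gene whose pattern over the 6 arrays was most like that of each transporter was sought among the brightest probe sets of 12576 other tested genes. For Slc7a5 it was Asns, asparagine synthetase, with a Pearson r of 0.987 over 6 arrays. Asns read 476, 436 and 449 in wild-type and 427, 446 and 495 in mutant arrays, so that it was high in wild-type array 1 and mutant array 3, as was Slc7a5. For the other genes the nearest were Dnd1 (Slc3a2), Srrm3 (Slc7a11), Saraf (Slc7a1), Gpaa1 (Slc38a5), Trip13 (Slc38a3), Smim13 (Slc1a4) and Ankrd10 (Slc6a6), with r between 0.971 and 0.997. Each transporter had 10 to 30 genes with r above 0.95. These are the highest of many values over few arrays, which share depth and scaling, and they carry no p.

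Among 45 other amino acid transporter genes, 34 were tested and none passed in either direction, where 0.223% of all genes tested by their brightest probe set were called. Limma gave 5 of the 34 an unadjusted p under 0.05, against 13.6% of all genes. The median log2 difference was -0.034, with 15 higher and 19 lower. Slc43a1, another carrier of large neutral amino acids, read 7.56, 7.69 and 9.73 in wild-type and 23.0, 17.0 and 20.0 in mutant arrays. Its groups did not overlap, and its log2 difference was 0.56 ± 0.13 (SE; limma adjusted p = 0.106). These values are close to the offset, which moved the difference between 0.21 (offset 64) and 1.17 (offset 1). Slc6a7, a proline carrier of neurons, read 294, 270 and 241 against 173, 254 and 193, a log2 difference of -0.36 (limma adjusted p = 0.278).

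Genes of the amino acid response, which ATF4 drives, did not pass either. Of 23 tested 0 were called, against 0.223% of all genes, and the median log2 difference was -0.049. Of these 9 read higher and 14 lower, and 1 had an unadjusted limma p under 0.05, against 13.6% of all genes. Atf4 itself read 701, 578 and 607 in wild-type and 615, 553 and 612 in mutant arrays, a log2 difference of -0.080 ± 0.084 (SE), and Asns had 0.0047 ± 0.075 (SE). Among the tested genes the largest differences were those of Cth, cystathionine gamma-lyase, with -0.24 (limma adjusted p = 0.441), and Psat1, a serine synthesis enzyme, with 0.20 (limma adjusted p = 0.246). A second Psat1 probe set had -0.18. Cth was dim, at 20.1 to 29.9 over the arrays, and its difference ran from -0.37 to -0.11 over the alternatives. Atf3, a stress-induced factor, was too dim to be tested and had -0.43 without overlap of the groups, and Trib3, also too dim, had 0.27. Both were named after their values were seen. Atf4 and Asns were named outside the rule, for their place in this response.

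Slc7a5 supplies leucine to the mTORC1 pathway. Of 27 leucine sensing and mTORC1 genes 0 were called, with a median of -0.060 and 3 at an unadjusted limma p under 0.05. Over all genes 0.223% were called and 13.6% had such an unadjusted p. Rraga, a GTPase that recruits mTORC1 to lysosomes, read 377, 393 and 349 in wild-type and 274, 312 and 251 in mutant arrays, without overlap. Its log2 difference was -0.40 ± 0.090 (SE; limma adjusted p = 0.106). Wdr59, a regulator of the same pathway, had 0.35 (limma adjusted p = 0.296). Of 17 genes of glutathione and taurine synthesis and of the oxidative stress response, 0 were called, against the same 0.223%. Their median was 0.011, and 2 had an unadjusted limma p under 0.05, against the same 13.6%. Keap1, the sensor that holds the oxidative stress factor NRF2 in check, had 0.39 on its brightest probe set (0.23 without wild-type array 1) and -0.044 on another. Nqo1, a target of that factor, had 0.36 (limma adjusted p = 0.383). It was dim, at 13.7 to 33.7 over the arrays, and its difference ran from 0.16 to 0.60 over the alternatives.

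**Figure D3:**
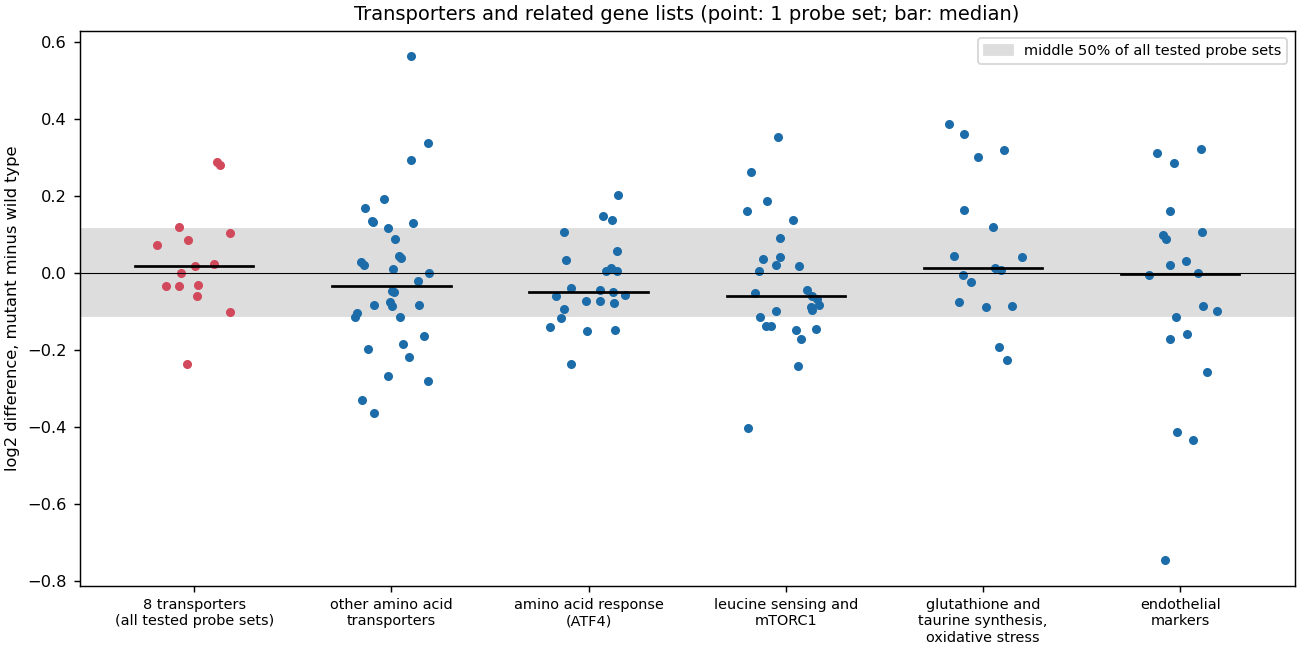
Log2 difference, mutant minus wild type, of the tested transporter probe sets and of the brightest tested probe set of each gene in 5 related lists, with bars at the medians and the middle 50% of all tested probe sets in grey. The medians lie between -0.060 and 0.016, and the lowest point is the endothelial gene Slco1c1 at -0.75.

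Because the transporters are known from brain endothelium, endothelial markers are given beside them. Of 20 tested markers 0 passed, with a median log2 difference of -0.0041 and 4 at an unadjusted limma p under 0.05. Over all genes tested by their brightest probe set, 0.223% passed and 13.6% had such an unadjusted p. Their summed intensity was 2721 to 2864 in wild-type and 2530 to 2614 in mutant arrays, without overlap. Without Slco1c1 and Cldn5 the other 18 summed to 1892 to 2120 in wild-type and 2038 to 2100 in mutant arrays, with overlap. This sum was made after their values were seen. Bright genes weigh most in such sums. The brightest of the 18, Slc2a1, had means of 676 in wild-type and 729 in mutant arrays, a log2 difference of 0.11. Its other probe sets had -0.10 and -0.17. The barrier genes Slco1c1, a thyroid hormone carrier, and Cldn5, a tight junction claudin, had -0.75 and -0.43 (limma adjusted p = 0.0652 and 0.0622). Kdr, a VEGF receptor gene, had -0.41, the efflux pump gene Abcg2 0.32, and the pan-endothelial genes Pecam1 and Cdh5 0.020 and 0.29. Tek had -0.26, Egfl7 -0.17, Flt1 -0.16 and Esam -0.12, while Sox17 had 0.31 and Emcn 0.16. Further Egfl7 probe sets ran from -0.10 to 0.18 and further Flt1 probe sets from -0.14 to -0.018. Another Sox17 probe set had 0.025. Of the 20 markers 9 read higher and 11 lower. The groups of 6 did not overlap, against 20.3% of all tested probe sets. On their brightest probe sets these were Slco1c1, Cldn5, Kdr, Tek, Egfl7 and Esam, each lower in the mutant. A dimmer probe set of Abcb1a also had groups that did not overlap, and it was higher in the mutant. Its log2 difference was 0.29 (limma adjusted p = 0.353), against -0.086 on the brightest Abcb1a probe set. Pecam1 was at -0.034 once arrays were centred on their medians. Cdh5 ran from 0.096, without mutant array 3, to 0.51, without mutant array 1, and Abcg2 was at 0.14 without both arrays 3. Whether the transporters differ from these genes was not tested.

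Other features of the arrays bear on these values. The brighter Foxf2 probe set read 13.8 to 24.4 in wild-type and 3.31 to 8.06 in mutant arrays and was too dim to be tested. The dimmer one read 0.686 to 4.55 in wild-type and 0.309 to 2.77 in mutant arrays. Median intensities were 23.1 to 23.6 in wild-type and 24.3 to 25.5 in mutant arrays. Skeletal muscle markers summed to 1692 in mutant array 3 and to 93.7 to 116 in the others, and pituitary markers summed to 1985 in wild-type array 3, with 277 in mutant array 3, against 39.6 to 59.5 in the rest. Leaving out both of these arrays, an alternative added after seeing the data, again called 0 of the 15. At an unadjusted limma p under 0.05 there were then 2. Of the lists of pericyte (12 genes tested), neuron (14), choroid plexus (6), meningeal (14), microglial (12), red blood cell (5), muscle (6) and pituitary (4) markers, 0 genes passed, against 0.223% of all genes. All 6 choroid plexus markers read higher in the mutant. They summed to 6054 to 6810 in wild-type and 6882 to 7206 in mutant arrays, without overlap, with Ttr (means 6069 and 6549) the brightest. Among tested pericyte markers the largest differences were those of Atp13a5 and Rgs5. Atp13a5 had -0.51 on its brightest probe set and -0.55 on another (limma adjusted p = 0.207 and 0.167). Rgs5 had -0.33 on its brightest (limma adjusted p = 0.374), and its others ran from -0.27 to -0.078. Higher and lower were 10 and 2 microglial, 10 and 4 meningeal, 7 and 7 neuron, and 4 and 8 pericyte markers. The part of these lists in the transporter values was not tested. Of 15 astrocyte and radial glia markers 1 rose, Vim, with 0.45 (limma adjusted p = 0.0435), where 0.215% of all genes rose, and this call was lost with any 1 of the 6 arrays left out. The other Vim probe sets had -0.030, with overlapping groups and about the same brightness, and 0.21 (limma adjusted p = 0.900 and 0.235). Nes, another radial glia gene, had -0.30 with groups that did not overlap, at an unadjusted limma p of 0.00918, and was named after its values were seen. The astrocyte and radial glia markers summed to 11389 to 12705 in wild-type and 12750 to 13776 in mutant arrays, without overlap, and without Vim to 10106 to 11503 and 11054 to 12144, with overlap. Of the 15, 10 read higher and 5 lower in the mutant, and their part in the transporter values was not tested.

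**Figure D4:**
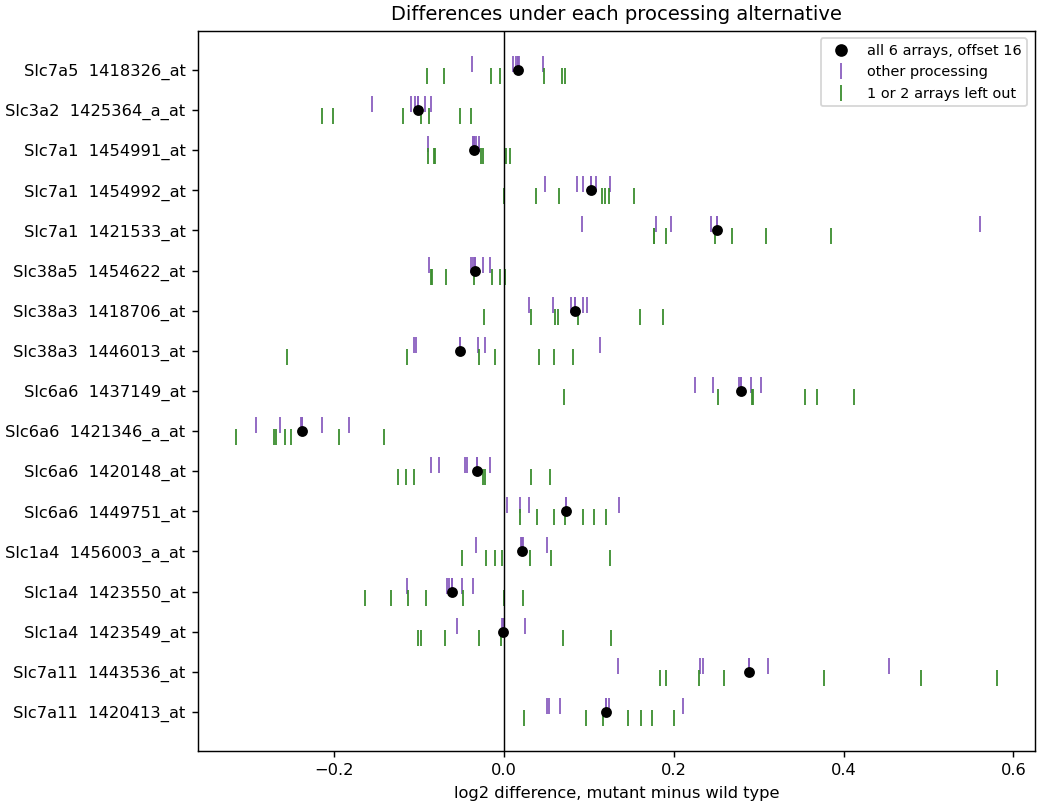
Log2 difference of each of the 17 probe sets with all 6 arrays and an offset of 16 (black), under other processing (purple) and with 1 or 2 arrays left out (green). Marks of 7 probe sets stay on the same side of 0, among them both Slc7a11 probe sets, Slc3a2 and the brighter Slc6a6 probe sets.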

How the data were processed

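The authors deposited linear intensity values made with MAS5, per the submitters' processing notes; the MAS5 version is not given in the sources used here. On each array the mean without the lowest and highest 2% was 100, so the authors' intensity values were already scaled between arrays and were not normalized again, which hides a change in total RNA. Detection calls were not used here. Of 45101 probe sets, 64 controls were left out. Values were analysed as log2(intensity + 16) in R 4.3.3 with limma 3.58.1 (lmFit, eBayes with a mean-variance trend), groups as the only term. P-values were adjusted (Benjamini-Hochberg) over the 27022 probe sets whose mean intensity was at or above the 40th percentile, 13.5. Folds on this scale understate changes of dim genes. Lists used each gene's brightest singly named probe set, and 15 list entries had none.

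The platform annotation named the probe sets, and the Entrez gene of all 17 transporter probe sets was found in RefSeq under the same symbol. The members and lists were chosen with earlier results of these data known. All transporter probe sets are given. The rule named, in each list, genes past the threshold, otherwise the 2 with the largest difference, and any endothelial gene. In lists of other cell types, only genes past the threshold and the pericyte genes of that rule are given. Ttr, Ptgds and Igf2 were named outside the rule. The fit was also run on simulated data with independent normal noise. That simulation lacked the differences shared by many genes of single arrays, and no result here rests on it. Alternatives changed the offset, filter, scaling, variance prior, array weights, pairing, probe sets per gene and arrays.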

Additional observations from a re-analysis of the deposited data

How the results depend on the processing

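The count of 0 called transporter probe sets held under all 17 alternatives, with the lowest adjusted p among them between 0.226 (median centring) and 0.575, and their median log2 difference moved by less than the spread between replicates in each. Over all probe sets the count of 105 became 181 with offset 1, 64 with offset 64, 52 with no filter, 168 with the 60th percentile as filter, 56 with median centring, 0 without the variance trend, 12 with 1 probe set per gene, 0 to 34 with 1 array left out (0 without wild-type array 1 or 2 or mutant array 2 or 3) and 0 without both arrays 3; the cause was not tested. The endothelial count of 0 became 2 with offset 1 and with the 60th percentile. The call of Vim, and with it the astrocyte and radial glia count of 1, became 0 with no filter, with median centring, without the trend, with 1 probe set per gene, without both arrays 3 and with 1 array left out (0 to 0).

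In the labels, same-numbered arrays shared only a number, and whether they share a litter or batch is not stated. Their deviations from the group means correlated at 0.18, 0.13 and 0.089, each the best match of its wild-type array. With the replicate number as a block, 220 probe sets were called, 0 of them transporters, and 1 endothelial gene (Slco1c1).

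Differences of 10 transporter probe sets changed sign under some alternative, 26 of 289 values in all. Median centring gave -0.038 for Slc7a5, -0.032 for the brightest Slc1a4 probe set, -0.034 for Pecam1 and -0.049 for Asns. For the dimmest Slc1a4 probe set the value was 0.00020 with offset 64 and 0.025 with quantile normalization, and for the dimmer Slc38a3 probe set 0.11 with offset 1. With 1 array, or both arrays 3, left out, log2 differences ran from -0.091 to 0.072 for Slc7a5, -0.090 to 0.0074 for the brightest Slc7a1 probe set, -0.00013 to 0.15 for the second Slc7a1 probe set, -0.086 to 0.0014 for Slc38a5, -0.024 to 0.19 for the brighter Slc38a3 probe set, -0.26 to 0.081 for the dimmer Slc38a3 probe set, -0.12 to 0.054 for the third brightest Slc6a6 probe set, -0.049 to 0.13 for the brightest Slc1a4 probe set, -0.16 to 0.023 for the second Slc1a4 probe set, -0.10 to 0.13 for the dimmest Slc1a4 probe set, -0.061 to 0.049 for Asns, -0.097 to 0.14 for Pecam1 and -0.13 to 0.032 for the dimmer Foxf2 probe set. The number of arrays limits the precision of these values.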
